A study of Mus musculus with 2 samples.

Results

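Adipokines are the hormones of fat tissue, and this account follows 10 of their genes in stromal cells of mouse inguinal white fat. The genes were chosen by name from the deposited table of all genes, and all 10 had a row among 23647 genes. The hormone genes were Adipoq, Lep, Retn, Cfd, Nampt, Apln and Rarres2, and the receptor genes were Adipor1, Adipor2 and Lepr. Polyadenylated RNA was sequenced from cells sorted with an antibody to PDGFRa, a receptor that marks adipose precursors, after collagenase had freed the stromal vascular fraction, which holds the tissue's cells other than its fat-filled adipocytes. There was 1 library from Sox9 PreASKO mice (labelled KO) and 1 from Sox9 floxed mice (labelled WT). All mice were labelled male and 3 weeks old and had received doxycycline at postnatal day 1, the floxed controls included. The series text describes pools of 3 mice, which cannot be told apart within a pool. The driver of the Sox9 deletion is not given in the sources used here.

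Adiponectin, the product of Adipoq, circulates as large complexes that raise insulin sensitivity through the receptors made from Adipor1 and Adipor2. Leptin, from Lep, reports the size of the fat stores to the brain through the receptor made from Lepr. Most of these hormones are made by mature adipocytes, while their receptors are found on many cell types. A stromal sort may thus hold hormone and receptor transcripts from cells of different kinds, and the cells of origin were not measured here. In such bulk samples, fewer cells of a type and less RNA per cell cannot be told apart.

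The PreASKO library held 37597048 counts and the floxed library 61761645. Levels are in CPM, counts scaled to a library total of 1000000, with the exact 95% Poisson interval in parentheses. Ratios are CPM in PreASKO over CPM in floxed with the exact 95% Clopper-Pearson interval. Both intervals cover counting error only, and PCR reads without molecular identifiers are not independent molecules. With 1 library a genotype there was no replicate check and no test. Sox9, the targeted gene, stood at 17.0 CPM in PreASKO and 28.6 CPM in floxed, and counts per gene do not show whether its remaining transcript was intact. Pdgfra, the gene of the sorting marker, stood at 603 CPM in PreASKO and 716 CPM in floxed. The library labelled PreASKO went against the label male. Xist, which coats the silenced X of female cells, stood at 745 CPM there and at 3.24 CPM in floxed. Of the Y-linked genes listed, Ddx3y barely differed, at 39.5 CPM in PreASKO and 40.6 CPM in floxed, and the others were lower in PreASKO. Kdm5d stood at 10.9 CPM in PreASKO and 20.2 CPM in floxed. Eif2s3y stood at 10.98 CPM in PreASKO and 17.6 CPM in floxed, and Uty at 9.12 CPM in PreASKO and 12.5 CPM in floxed. All 14 macrophage markers were higher in PreASKO, 6 of them past 2-fold (Csf1r, Lyz2, Cd163, Ptprc, Ms4a7 and C1qc). They summed to 2662 CPM in PreASKO and 1392 CPM in floxed. Of 9 measured endothelial markers 8 were higher, 3 of them past 2-fold (Kdr, Erg and Esam). At least 2-fold higher were 2.11% of all genes tested. The endothelial list summed to 190 CPM in PreASKO and 177 CPM in floxed. Most of that sum was Tek, the 1 marker not higher, at 147 CPM in PreASKO and 154 CPM in floxed. The differences below stand between pools that differ in these ways as well.

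The bases just before the transcription start are shown for Adipoq and Lepr, the members past a 2-fold difference, and for Lep, which encodes the ligand of the Lepr product. The sequences are from RefSeq (GRCm38.p6, the assembly on which mm10 is based), which held promoter windows for 9 of the 10 members. Each is 250 bases long, runs 5′ to 3′ on the gene's strand and ends at the base before the start. Capitals mark matches on either strand to the CCAAT box (by those letters), to the C/EBP motif TTGCNNAA or to the GC box GGGCGG. The nuclear receptor half-site AGGTCA, the STAT motif TTCNNNGAA and the TATA box TATAAA were also searched, with no match in these windows; they are found in 14.02%, 7.02% and 12.4% of all windows.
Adipoq, chr16:23146286-23146535, plus strand: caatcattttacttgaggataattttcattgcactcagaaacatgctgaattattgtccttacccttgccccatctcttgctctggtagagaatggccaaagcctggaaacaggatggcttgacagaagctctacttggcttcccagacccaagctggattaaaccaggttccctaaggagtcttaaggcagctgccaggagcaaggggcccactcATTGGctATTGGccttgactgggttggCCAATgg
Lepr, chr4:101717157-101717406, plus strand: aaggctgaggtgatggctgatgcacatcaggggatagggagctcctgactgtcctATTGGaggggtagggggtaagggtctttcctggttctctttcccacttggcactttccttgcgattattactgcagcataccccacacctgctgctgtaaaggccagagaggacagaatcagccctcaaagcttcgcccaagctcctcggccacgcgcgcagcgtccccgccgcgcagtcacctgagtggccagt
Lep, chr6:29059971-29060220, plus strand: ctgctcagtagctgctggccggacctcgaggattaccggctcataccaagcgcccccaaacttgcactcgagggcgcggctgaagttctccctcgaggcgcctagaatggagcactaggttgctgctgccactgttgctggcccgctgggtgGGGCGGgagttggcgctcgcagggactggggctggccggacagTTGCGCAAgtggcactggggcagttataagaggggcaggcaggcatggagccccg

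The Adipoq window held 3 matches to CCAAT, which began 34, 27 and 7 bases before the start, and the Lepr window held 1, which began 195 bases before it. A match to CCAAT is common, at 33.8% of 32851 windows of this length. The Lep window held 1 match to TTGCNNAA, 55 bases before the start, a motif found in 9.56% of windows, and 1 match to GGGCGG, found in 32.7%. The matches in these windows do not overlap each other. They describe the letters of these windows and not binding, which was not measured. RefSeq lists a second, downstream start for Lepr, whose window is not printed here.

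Lepr transcript was higher and Adipoq transcript lower in the PreASKO library, each by more than 2-fold, and the other measured members lay within that limit. The limit was set on the log2(CPM + 1) scale among genes averaging 1 CPM or more over both libraries, a filter that 9 of 10 members passed, all but Lep. Of these 9, 1 was at least 2-fold higher, against 2.11% of 13684 genes tested, and 1 was at least 2-fold lower, against 1.52%. In either direction this is 22.2% of the measured members, against 3.63% of all genes, in a set of genes that was proposed with earlier results of these data known. The 4 hormones lower in PreASKO were Adipoq, Retn, Apln and Cfd, and the 2 higher ones were Nampt and Rarres2.

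**Figure D1:**
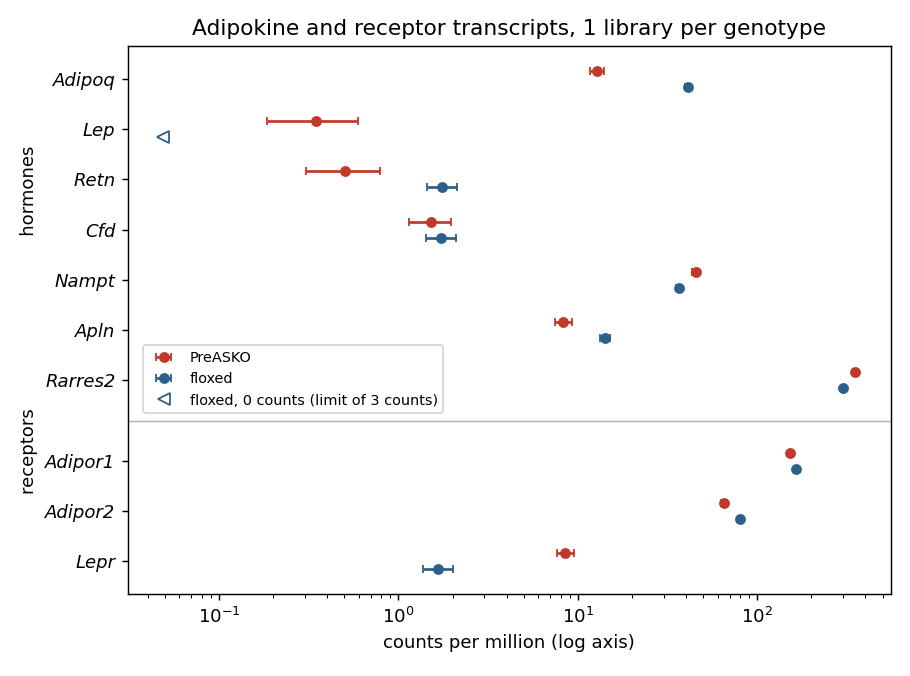
Level of each member in CPM on a log axis, PreASKO in red and floxed in blue, with exact 95% Poisson intervals as bars; the open triangle is the limit that a count of 0 allows for Lep in floxed. Lepr lies at 8.51 CPM in PreASKO and 1.67 CPM in floxed, Adipoq at 12.8 CPM in PreASKO and 41.2 CPM in floxed, and the other receptors stand close together in both libraries.

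Gene positions are those of GENCODE M21 on GRCm38. Adipoq (Entrez ID 11450; chromosome 16, 23146536 to 23158028, plus strand) encodes adiponectin, the most abundant adipocyte hormone in plasma. It held 482 counts in PreASKO, 12.8 CPM (11.7 to 14.02), and 2547 counts in floxed, 41.2 CPM (39.7 to 42.9). The ratio was 0.311 (0.281 to 0.343), and the intervals of the 2 libraries lay far apart. The log2(CPM + 1) difference was -1.61, at percentile 0.132 of the genes tested. Both deposited count columns gave the same direction, with a ratio of 0.376 (0.311 to 0.452) from the raw count alone and 0.289 (0.257 to 0.325) from the repeat-distributed count alone.

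Retn (ID 57264; chromosome 8, 3655770 to 3660110, plus strand) encodes resistin, which in mice is an adipocyte hormone that opposes insulin. It held only 19 counts in PreASKO, 0.505 CPM (0.304 to 0.789), and 108 counts in floxed, 1.75 CPM (1.43 to 2.11), a ratio of 0.289 (0.168 to 0.473). Its CPM ratio was thus close to that of Adipoq, but the added 1 CPM is as large as its level, and on the log2(CPM + 1) scale the difference was -0.87, short of 2-fold. Without a pseudocount, the fold in the authors' deposited table was 0.299. The raw count alone, at 9 in PreASKO and 24 in floxed, gave a ratio of 0.553 (0.226 to 1.23), an interval that includes 1. The repeat-distributed count alone gave 0.202 (0.0935 to 0.390).

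Lep (ID 16846; chromosome 6, 29060220 to 29073877, plus strand) encodes leptin, which rises in blood with the size of the fat stores. It held 13 counts in PreASKO, 0.346 CPM (0.184 to 0.591), all of them in the repeat-distributed column, and 0 counts in floxed, which allows up to 0.0486 CPM at a limit of 3 counts in that library. Against that limit, and with the 13 counts taken as they stand, it was at least 7.12-fold higher in PreASKO, while the exact interval of the ratio, which also covers the error of those 13 counts, begins at 5.01. Both levels stood below 1 CPM. The authors' deposited table gives a fold of 296 for Lep, and this number rests on those 13 counts against 0.

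Cfd (ID 11537; chromosome 10, 79890853 to 79892655, plus strand) encodes adipsin, the serine protease that activates the alternative complement pathway and one of the strongest transcripts of mature mouse adipocytes. It held 57 counts in PreASKO, 1.52 CPM (1.15 to 1.96), and 107 counts in floxed, 1.73 CPM (1.42 to 2.09), with overlapping intervals and a ratio of 0.875 (0.623 to 1.22). All of its counts were in the repeat-distributed column, with 0 raw counts in both libraries, as for 16.3% of genes tested. The ratio intervals of Adipoq and Cfd did not overlap.

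The hormones that are less bound to adipocytes also had differences under 2-fold, as did Cfd and, on the log2(CPM + 1) scale, Retn. Rarres2 (ID 71660; chromosome 6, 48569696 to 48572789, minus strand) encodes chemerin, a chemoattractant and adipokine that is secreted as an inactive precursor. It stood at 348 CPM (342 to 354) in PreASKO and 301 CPM (297 to 306) in floxed, a ratio of 1.15 (1.13 to 1.18). The raw count alone, which holds 0.987% of its counts in PreASKO and 1.20% in floxed, gave a ratio of 0.849 (0.679 to 1.06). Nampt (ID 59027; chromosome 12, 32819545 to 32853349, plus strand) encodes the rate-limiting enzyme of NAD salvage, which is also found outside cells under the name visfatin. It stood at 45.3 CPM (43.2 to 47.5) in PreASKO and 36.5 CPM (35.0 to 38.0) in floxed, a ratio of 1.24 (1.17 to 1.32). The repeat-distributed count alone turned the direction of Nampt, at a ratio of 0.926 (0.801 to 1.07). Macrophages also make Nampt and their markers were higher in PreASKO, and the part of those cells in this difference was not tested.

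Apln (ID 30878) encodes apelin, a peptide that acts on blood vessels and heart and is also released by adipocytes. It stood at 8.30 CPM (7.40 to 9.27) in PreASKO and 14.2 CPM (13.3 to 15.2) in floxed, a ratio of 0.584 (0.512 to 0.666). The gene lies on the X chromosome (48025146 to 48034853, minus strand), and the libraries differ in Xist. Over 444 X-linked genes tested the median log2 difference was -0.03, against -0.04 over 12962 autosomal genes, and Apln lay below both, at a log2 difference of -0.71. The part of the sex difference in the Apln value was not tested.

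Among the receptors, Lepr differed far more than the pair of adiponectin receptors. Lepr (Entrez ID 16847; chromosome 4, 101717404 to 101815352, plus strand) encodes a cytokine-type receptor that signals through JAK2 and STAT3. It held 320 counts in PreASKO, 8.51 CPM (7.60 to 9.50), and 103 counts in floxed, 1.67 CPM (1.36 to 2.02). The ratio was 5.10 (4.08 to 6.44), with no overlap of the intervals, and the log2(CPM + 1) difference was 1.83, at percentile 99.9 of the genes tested.

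The size of the Lepr difference depended on the count column. The raw count, 239 in PreASKO and 55 in floxed, gave a ratio of 6.41 (4.76 to 8.76). The repeat-distributed count, 81 in PreASKO and 48 in floxed, gave 2.86 (1.98 to 4.18), and on the log2(CPM + 1) scale 0.95, just short of 2-fold. Lepr was higher in PreASKO in both columns. Leprot, a separate gene upstream of Lepr whose product regulates how much leptin receptor reaches the cell surface and whose name the deposited table lists among the synonyms of Lepr, stood at 255 CPM in PreASKO and 258 CPM in floxed. Endothelial cells also make the leptin receptor, and of their markers Esam stood at 2.13 CPM in PreASKO and 0.324 CPM in floxed and Kdr at 11.1 CPM in PreASKO and 5.003 CPM in floxed, while Tek barely differed, at 147 CPM in PreASKO and 154 CPM in floxed. Of the 12 endothelial markers with a row, 3 lay under 1 CPM in both libraries and none was at 0, and their part in the Lepr difference was not tested.

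Adipor1 (ID 72674; chromosome 1, 134415378 to 134433351, plus strand) and Adipor2 (ID 68465; chromosome 6, 119353150 to 119417704, minus strand) encode membrane proteins of the PAQR family, of which the product of Adipor1 is tied mainly to AMPK and that of Adipor2 mainly to PPARa. Adipor1 stood at 153 CPM (149 to 157) in PreASKO and 163 CPM (160.0 to 166) in floxed, a ratio of 0.937 (0.907 to 0.968). Adipor2 stood at 65.0 CPM (62.4 to 67.6) in PreASKO and 79.9 CPM (77.6 to 82.1) in floxed, a ratio of 0.813 (0.775 to 0.854). Both values were slightly lower in PreASKO than in floxed and far within 2-fold. Nearly all of their counts were repeat-distributed, and that count alone gave ratios of 0.970 (0.938 to 1.002) for Adipor1, an interval that includes 1, and 0.841 (0.801 to 0.883) for Adipor2. For Adipor1 the raw count, at 11 in PreASKO and 37 in floxed, gave a ratio of 0.438 (0.202 to 0.878).

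**Figure D2:**
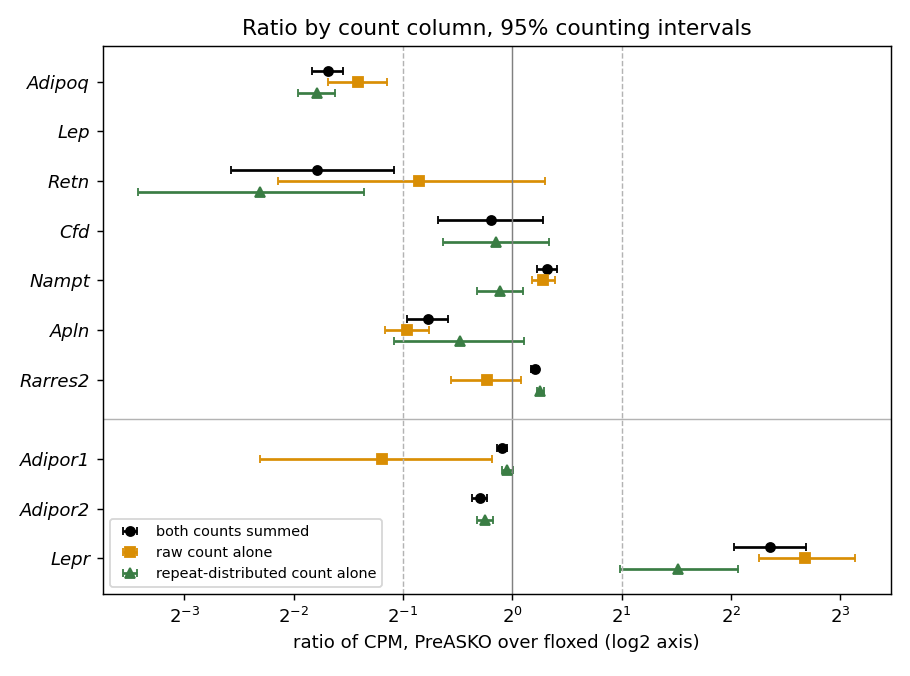
Ratio of CPM in PreASKO over floxed for each member on a log2 axis, from both counts summed (black), the raw count alone (orange) and the repeat-distributed count alone (green), with 95% counting intervals and dashed lines at 2-fold; a column with 0 counts in either library is not drawn. Adipoq is lower and Lepr higher in every column, with Lepr at 6.41 from the raw and 2.86 from the repeat-distributed count.

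Hormones set against receptors overlapped in their differences. The 6 measured hormones ran from -1.61 to 0.31 on the log2 scale with a median of -0.41, and the 3 receptors from -0.29 to 1.83 with a median of -0.09. The median of all genes tested was -0.04. The hormone median minus the receptor median was -0.32, against -0.08 with a pseudocount of 5 CPM and -1.31 with the raw count alone. The raw count alone left 7 members measured, without Cfd and Adipor2, so its receptor median rests on Adipor1 and Lepr only. The value of -1.31 thus compares other genes than that of -0.32. Summed over all members with a row, hormone transcripts came to 416 CPM in PreASKO and 397 CPM in floxed, most of it Rarres2, and receptor transcripts to 226 CPM in PreASKO and 245 CPM in floxed.

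Levels of different genes were compared per kilobase of merged GENCODE M21 exons. In PreASKO the order was Rarres2 (131 CPM per kilobase), Adipor1 (30.4), Adipor2 (10.9), Adipoq (9.28), Nampt (8.97), Apln (2.64), Cfd (1.64), Lepr (1.21), Retn (0.320) and Lep (0.103). There the counting intervals of the neighbours Adipoq and Nampt overlapped, as did those of Cfd and Lepr. In floxed the order was Rarres2 (113 CPM per kilobase), Adipor1 (32.5), Adipoq (29.9), Adipor2 (13.4), Nampt (7.21), Apln (4.51), Cfd (1.88), Retn (1.11), Lepr (0.237) and Lep (0 counts), with no overlap between neighbours. The orders differ by 2 exchanges: Adipoq stood below Adipor2 in PreASKO and above it in floxed, and Lepr stood above Retn in PreASKO and below it in floxed.

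Other transcripts of mature adipocytes were mostly lower in PreASKO too, most by less than Adipoq. Of 19 measured markers without the members, 17 were lower in PreASKO, with a median log2 difference of -0.55, against 54.5% of all genes lower and a median of -0.04. Gpd1, whose enzyme makes the glycerol backbone of stored fat, stood at 5.45 CPM in PreASKO and 25.1 CPM in floxed. Slc2a4, the insulin-responsive glucose transporter gene, stood at 1.94 CPM in PreASKO and 6.59 CPM in floxed. These were the 2 markers at least 2-fold lower, where 1.52% of all genes were. Plin1, which coats the lipid droplet and defines adipocytes, stood at 27.8 CPM in PreASKO and 34.0 CPM in floxed, a ratio of 0.818 (0.759 to 0.881), well above the interval of Adipoq. This depended on the count column. The raw count of Plin1, only 6 in PreASKO and 57 in floxed, gave a log2 difference of -1.66, against -1.36 for Adipoq in that column. Plin4 stood higher, at 24.5 CPM in PreASKO and 13.4 CPM in floxed. The list summed to 978 CPM in PreASKO and 1469 CPM in floxed, led by Car3 at 477 CPM in PreASKO and 716 CPM in floxed and Scd1 at 170 CPM in PreASKO and 227 CPM in floxed. Cidec, a lipid droplet protein gene restricted largely to adipocytes, stood near 1 CPM, at 0.665 CPM in PreASKO and 1.004 CPM in floxed, and Cidea stood at 0.399 CPM in PreASKO and was at 0 in floxed. How far adipocytes carried over into the sort account for Adipoq was not tested.

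**Figure D3:**
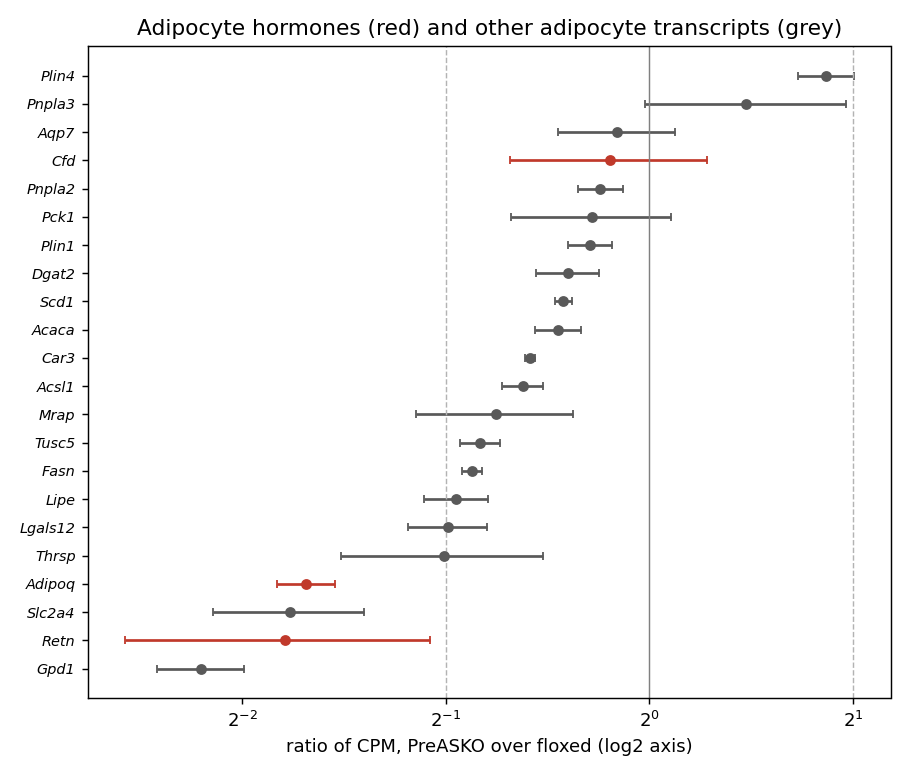
Ratio of CPM in PreASKO over floxed on a log2 axis for 3 adipocyte hormones (red) and 19 other adipocyte transcripts (grey), with 95% counting intervals, sorted by ratio. Adipoq at 0.311 and Retn at 0.289 lie at the low end beside Slc2a4 and Gpd1, while Cfd at 0.875 lies near Plin1.

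Transcription factors known to act on adipokine genes differed in both directions. Of 11 measured, 5 were higher and 6 lower in PreASKO, with a median of -0.29. At least 2-fold higher were 2, against 2.11% of all genes. Cebpb, an early factor of adipogenesis, stood at 52.0 CPM in PreASKO and 18.7 CPM in floxed, and Cebpd at 554 CPM in PreASKO and 180 CPM in floxed. Cebpa, whose product binds the C/EBP motif of the Lep promoter, barely differed, at 45.3 CPM in PreASKO and 43.8 CPM in floxed. Pparg, whose product drives Adipoq, stood at 84.1 CPM in PreASKO and 139 CPM in floxed, a ratio of 0.603 (0.579 to 0.629). Srebf1, a lipogenic factor that also acts on Adipoq in cultured adipocytes, stood at 47.7 CPM in PreASKO and 87.2 CPM in floxed. The glucocorticoid receptor gene Nr3c1, at 260 CPM in PreASKO and 320 CPM in floxed, and Rxra, the partner of Pparg, at 102 CPM in PreASKO and 125 CPM in floxed, were both lower by less. Foxo1, also on this list, stood higher, at 125 CPM in PreASKO and 98.3 CPM in floxed. Which of these factors acted on the members in these cells was not measured.

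No gene of the leptin receptor signalling list passed 2-fold beside Lepr. Past 2-fold were 3.63% of all genes, so a short list may hold none at that share. Of 15 measured, 6 were higher and 9 lower in PreASKO, with a median of -0.07. Socs3, the feedback inhibitor that STAT3 induces, stood at 998 CPM in PreASKO and 872 CPM in floxed, although the raw count alone, which holds 0.360% of its counts in PreASKO and 1.11% in floxed, gave a log2 difference of -1.53. Stat3 itself stood at 219 CPM in PreASKO and 199 CPM in floxed. Ptpn11, which couples the receptor to ERK signalling, stood at 123 CPM in PreASKO and 140 CPM in floxed. Of 11 other receptors of the class I cytokine family, 1 was past 2-fold, against 3.63% of all genes. This was Prlr, the prolactin receptor gene, at 50.1 CPM in PreASKO and 119 CPM in floxed, a ratio of 0.420 (0.399 to 0.442). Il6st, the shared gp130 subunit, stood at 578 CPM in PreASKO and 751 CPM in floxed. Il11ra1, for interleukin 11, stood at 184 CPM in PreASKO and 112 CPM in floxed, and Ghr, for growth hormone, at 105 CPM in PreASKO and 136 CPM in floxed. The median of the 11 was -0.12. Within that family, Lepr and Prlr thus lay on opposite sides.

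The machinery around adiponectin and its receptors lay within 2-fold. Of 18 measured genes for adiponectin assembly, AMPK signalling and the PAQR family, 9 were higher and 9 lower in PreASKO, with a median of -0.02. None was past 2-fold, and a short list may hold none at the share of all genes, 3.63%. Erp44, which retains adiponectin in the secretory pathway until it is assembled, stood at 194 CPM in PreASKO and 183 CPM in floxed. Asah1, an acid ceramidase gene, stood at 206 CPM in PreASKO and 227 CPM in floxed, and Stk11, whose kinase LKB1 activates AMPK, at 76.5 CPM in PreASKO and 66.2 CPM in floxed. Appl1, the adaptor of the adiponectin receptors, stood at 80.7 CPM in PreASKO and 74.6 CPM in floxed. Cdh13, which encodes T-cadherin, the binding protein of large adiponectin complexes, stood at 49.6 CPM in PreASKO and 46.6 CPM in floxed. With the raw count alone, Erp44, Stk11 and Cdh13 took the other sign, at log2 differences of -0.44, -1.36 and -0.41.

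Among 10 measured receptors of the other hormones, 6 were higher and 4 lower in PreASKO, and 3 passed 2-fold, against 3.63% of all genes. For chemerin, Cmklr1, its main signalling receptor, stood at 63.2 CPM in PreASKO and 77.1 CPM in floxed, and Gpr1, its second receptor, at 2.53 CPM in PreASKO and 7.63 CPM in floxed, a ratio of 0.331 (0.263 to 0.414). Gpr1 was thus lower in PreASKO while Rarres2, its ligand's gene, was slightly higher. C3ar1 and C5ar1, receptors of complement fragments on myeloid cells, stood at 57.1 and 107 CPM in PreASKO and at 26.6 and 52.2 CPM in floxed. Their ratios of 2.15 and 2.05 lie within the wide range of the 14 macrophage markers, from 1.18 to 2.80, and the part of macrophages in them was not tested. The raw count alone gave the other sign for Cmklr1, at a log2 difference of 0.27, and for C5ar1, at -0.11. Cap1, a reported resistin receptor, stood at 293 CPM in PreASKO and 328 CPM in floxed. Aplnr, the apelin receptor gene, lay below 1 CPM in both libraries, at 0.825 CPM in PreASKO and 0.599 CPM in floxed.

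Around Cfd, 8 other genes of the alternative complement pathway were measured, of which 5 were higher and 3 lower in PreASKO, with a median of 0.13. C3, the central component, stood at 2103 CPM in PreASKO and 1774 CPM in floxed, and Cfb, the zymogen that adipsin cleaves, at 191 CPM in PreASKO and 165 CPM in floxed. Cd55, a membrane inhibitor, stood at 243 CPM in PreASKO and 233 CPM in floxed.

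Around Nampt, 14 of 21 measured genes of NAD synthesis and use were lower in PreASKO (66.7%, against 54.5% of all genes), with a median of -0.21. Bst1, which encodes a surface enzyme that consumes NAD, was the 1 past 2-fold, where 3.63% of all genes were. It stood at 8.27 CPM in PreASKO and 3.61 CPM in floxed. Bst1 is also made by myeloid cells, whose macrophage markers were higher in the same library, and their part was not tested. Nadk stood at 154 CPM in PreASKO and 163 CPM in floxed, Sirt2 at 99.4 CPM in PreASKO and 108 CPM in floxed, and Nnmt, which methylates nicotinamide and is abundant in fat, at 78.2 CPM in PreASKO and 90.7 CPM in floxed.

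**Figure D4:**
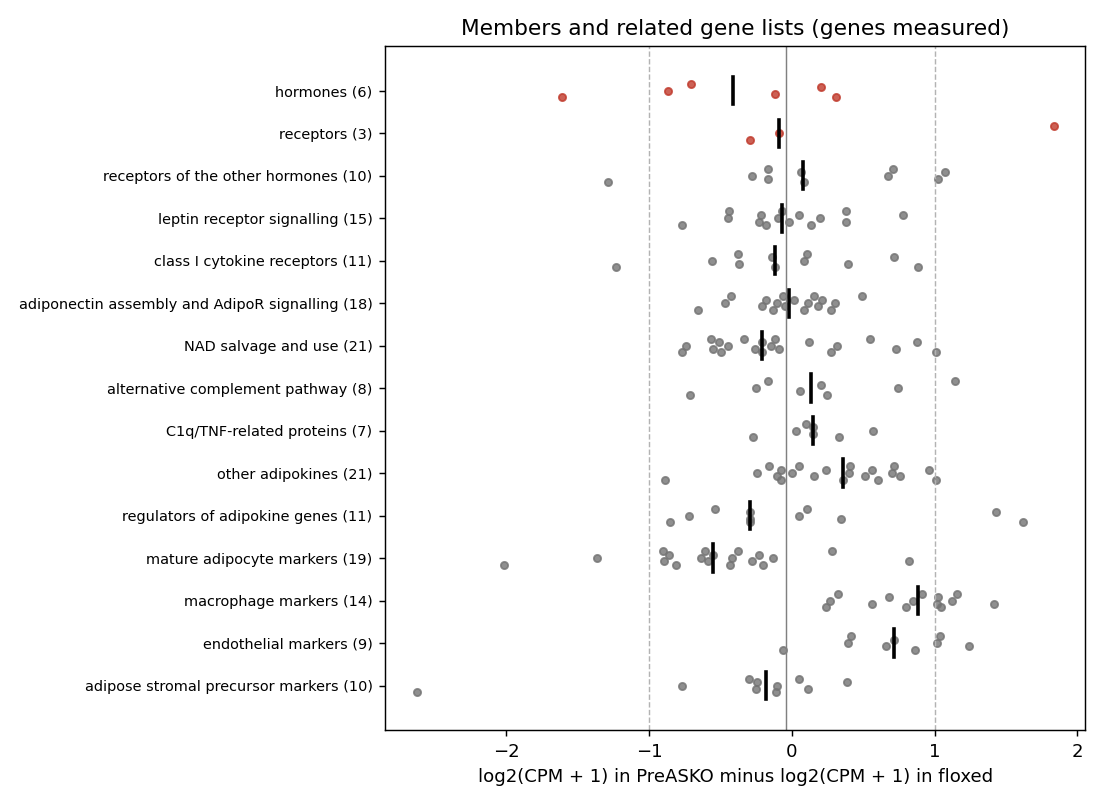
Difference of log2(CPM + 1), PreASKO minus floxed, for each measured gene (points) of the members (red) and of related lists (grey), with list medians as black bars, the median of all genes as a thin line at -0.04 and dashed lines at 2-fold. Hormones (median -0.41) and receptors (median -0.09) overlap, mature adipocyte markers lie lower (median -0.55) and macrophage markers higher (median 0.88).

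The genes nearest to Adipoq and Lepr in the pair of log2 levels were sought among 10419 named protein-coding genes averaging 5 CPM or more, as a description over 2 libraries. Nearest to Adipoq, by Euclidean distance, were Smoc1 (0.31), Phgdh (0.35), Vps72 (0.38), Tenm4 (0.39) and Duox1 (0.39). Smoc1 stood at 15.9 CPM in PreASKO and 43.9 CPM in floxed. Nearest to Lepr were Oas3 (0.32), Rgs1 (0.38), Pilrb2 (0.44), Lst1 (0.49) and Car12 (0.50), with Oas3 at 9.68 CPM in PreASKO and 2.23 CPM in floxed.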

How the data were processed

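RNA-seq counts per gene of both libraries were read from the deposited table. Its raw count is a whole number and its repeat-distributed count an estimated count that need not be whole, per the file headers. What separates these columns, the aligner, the annotation's version and strandedness are not stated in the sources available. Reads were placed on mm10, per the submitters' processing notes. The authors' deposited fold is a ratio of PreASKO over floxed of unstated normalization. Both counts were added because this matched that fold best: of 11967 genes with 100 or more counts in each library, 97.9% had a quotient of fold over count ratio within 5% of its median, against 71.7% of 11655 genes for the repeat-distributed and 19.7% of 9010 for the raw count. The 24 rows bearing dates were resolved by Entrez ID, and rows of 21 shared IDs were summed. CPM is the summed count over its library total, times 1000000. Estimated counts were rounded for intervals (scipy 1.17.1).

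Members and lists were chosen with earlier results of these data known. All 10 members are described. From each pathway list the genes past 2-fold are named, then the most abundant up to 4, and from marker lists a part of these; Sox9, the sex genes and the 5 nearest genes of Adipoq and Lepr follow. Pdgfra, Plin1, Plin4, Cidec, Cidea, Cebpa, Pparg, Srebf1, Foxo1, Cmklr1, Aplnr, Cdh13 and Retnla were added after their values were seen. A result that the naming rule would add is not reported here. Code was tested on simulated data. Alternatives covered pseudocount, count column, scaling (edgeR 4.0.16 TMM in R 4.3.3; median of ratios), minimum level, cutoff and the deposited fold. List genes with no matching row were not analysed here.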

Additional observations from a re-analysis of the deposited data

How the results depend on the processing

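No paired analysis was possible because there was 1 library per genotype, for which no replicate could be left out either. The cutoff was 2-fold in all alternatives but those that set it to 1.5-fold and 3-fold. Of 7 to 10 members measured, 1 (Lepr) was higher past the cutoff in 10 of 11 alternatives and 0 with the repeat-distributed count alone. Lower past the cutoff was 1 (Adipoq) in 7 alternatives, the 3-fold cutoff among them. It was 2 (with Retn) with a pseudocount of 0.1 CPM, with the repeat-distributed count alone and by the authors' deposited fold. At the 1.5-fold cutoff it was 3 (with Retn and Apln). Over all genes, 289 were higher and 208 lower past the cutoff, of 13684 tested. With the same number tested, a pseudocount of 0.1 CPM called 515 and 412, and that of 5 CPM 58 and 28. The 1.5-fold cutoff called 1080 and 1120, and the 3-fold cutoff 30 and 22. The number tested fell to 9062 for the raw count alone, with 465 higher and 907 lower. For the repeat-distributed count alone it was 12879, with 308 higher and 244 lower. Requiring 5 CPM on average left 11038 genes, 153 higher and 93 lower. By the deposited fold, 597 were higher and 471 lower, of 13666. The share past the cutoff was thus highest at 1.5-fold and with the raw count alone. Hormones minus receptors (median log2 difference, -0.32) came to -1.31 for raw counts only and to -0.026 without a minimum level. For raw counts only, Cfd and Adipor2 fell under the minimum, and without a minimum Lep was added, so the genes compared differ. The adipocyte marker median, -0.55, came to -0.64 for raw counts only, -0.38 with a pseudocount of 5 CPM and -0.43 without a minimum level. The cutoffs, pseudocounts and minimum act by construction. For the columns, apart from the genes that they leave out, and for the deposited fold the cause was not tested. The median of all genes, -0.041, came to -0.0068 with TMM and -0.0079 with median-of-ratios scaling, and no member's call changed with either. Rarres2 at -0.22 with the raw count alone and Nampt at -0.10 with the repeat-distributed count alone took the other sign. Lepr ran from 0.95 to 2.42 and Adipoq from -1.71 to -1.36. Depth limits Lep, Retn and Cfd most, with 13, 19 and 57 counts in PreASKO.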

Other observations

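Other secreted factors of fat tissue were mostly higher in the PreASKO library. Of 21 measured adipokines outside the members, 15 were higher, against 45.5% of all genes, with a median log2 difference of 0.36. Wisp2, a secreted inhibitor of adipogenic commitment, was the 1 past 2-fold, where 3.63% of all genes were. It stood at 13.3 CPM in PreASKO and 6.10 CPM in floxed. Retnla, a relative of resistin made by macrophages and stromal cells, stood at 185 CPM in PreASKO and 94.4 CPM in floxed, the other way from Retn, with all 14 macrophage markers higher in the same library. The most abundant of the list differed little. Igfbp4 stood at 1182 CPM in PreASKO and 1141 CPM in floxed, and Angptl2 at 897 CPM in PreASKO and 1062 CPM in floxed. Ccl2 stood at 671 CPM in PreASKO and 705 CPM in floxed. With the raw count alone, Igfbp4 and Angptl2 took the other sign, at log2 differences of -0.09 and 0.88. Among 7 measured paralogs of adiponectin, the C1q/TNF-related proteins, 6 were higher, against 45.5% of all genes. None passed 2-fold, where 3.63% of all genes did, a share at which a short list may hold none. C1qtnf1 stood at 754 CPM in PreASKO and 704 CPM in floxed, and C1qtnf2 at 54.6 CPM in PreASKO and 49.2 CPM in floxed. C1qtnf7 stood at 50.9 CPM in PreASKO and 49.9 CPM in floxed, and C1qtnf6 at 330.5 CPM in PreASKO and 398 CPM in floxed. The raw count alone gave the other sign for C1qtnf1, C1qtnf7 and C1qtnf6, at log2 differences of -0.40, -0.19 and 0.54.

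Of 6 measured proteases that process chemerin or apelin, none passed 2-fold, where 3.63% of all genes did. Ctsl stood at 1326 CPM in PreASKO and 1201 CPM in floxed, and Plat at 321 CPM in PreASKO and 347 CPM in floxed. Ctsk stood at 233 CPM in PreASKO and 237 CPM in floxed, and Plau at 174 CPM in PreASKO and 188 CPM in floxed. With the raw count alone, Plat, Ctsk and Plau took the other sign, at log2 differences of 0.04, 0.23 and 0.14. Of 10 adipose precursor markers, 7 were lower in PreASKO, against 54.5% of all genes. Dlk1 (Pref-1) was the 1 at least 2-fold lower, where 1.52% of all genes were. It stood at 16.2 CPM in PreASKO and 105 CPM in floxed. Hemoglobin transcripts were higher in PreASKO, with Hbb-bs at 66.9 CPM in PreASKO and 28.1 CPM in floxed. Of 8 mural markers, 4 were higher and 4 lower. Neutrophil markers summed to 4.57 CPM in PreASKO and 3.42 CPM in floxed, and mesothelial markers to 8.70 CPM in PreASKO and 11.8 CPM in floxed.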
